A study of Rattus norvegicus with 24 samples.

Results

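Potassium channel genes were followed across all groups of a study of doxorubicin injury in cultured heart muscle cells. A row of the count table was taken as a member when its symbol begins with Kcn, followed by letters and a number, and it reached 1 CPM (count scaled to the library's total) in at least 3 of the 24 libraries. Of 91 rows with such a symbol, 49 met this rule and all 49 were tested. They comprise 21 of 38 voltage-gated pore subunits, 7 of 12 accessory subunits, 8 of 15 inward rectifiers, 6 of 14 two-pore channels and 7 of 12 calcium- or sodium-activated channel genes. Because the rule asks for 3 libraries only, 6 members had a mean of 1 CPM or more in exactly 1 group and 13 reached 1 CPM in all 3 libraries of no group. Just inside the threshold, 2 members reached 1 CPM in exactly 3 libraries, Kcnh1 and Kcnk12. Just outside it, 1 row, Kcnip4, did so in 2 libraries, and Kcnj8 and Kcnma1 did so in 1.

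The cells were ventricular myocytes isolated from newborn Sprague-Dawley rats, purified and grown in serum-containing medium. Every group was transfected with Lipofectamine RNAiMax the day after plating. The mimics, at 5 nM each, were a negative control mimic, a mimic of the microRNA miR-222-3p, a mimic of miR-455-3p, or both of the latter. From 48 h after transfection each of these 4 conditions received doxorubicin, a cancer drug with toxic effects on heart muscle, or control treatment, for 24 h. The dose is given as 4 uM in the sample protocol and as 4 mM in the series text and is not settled. The 8 groups hold 3 libraries each, the sources used here name neither the animals nor the cultures behind them, and p-values therefore measure the spread between these libraries, which may be technical. The study asks whether the 2 microRNAs protect these cells together.

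Potassium channels let potassium leave the cell and so set the resting potential and end the action potential. Inward rectifiers hold the resting potential, voltage-gated channels with their accessory subunits carry the outward currents of repolarization, two-pore channels give a background leak, and calcium-activated channels link potassium exit to calcium. In ventricular muscle these genes differ between layers of the wall and change as the heart matures, and several are sites of inherited arrhythmia.

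The microRNAs that the mimics stand for are shown because every comparison between mimics rests on them. These are the rat mature sequences of RefSeq on GRCr8, 5′ to 3′, with the seed (bases 2 to 8) in capitals. The seeds of the pair differ. The sequences of the mimics themselves are not used here.
rno-miR-222-3p, chrX:6022682-6022702, plus strand: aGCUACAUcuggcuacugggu
rno-miR-455-3p, chr5:81704881-81704902, plus strand: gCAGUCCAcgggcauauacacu

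The libraries held 17311949 to 25750309 counts, with 11469 to 13524 genes at 10 or more counts and 5.54% to 38.2% of counts from mitochondrial genes. The summed marker levels of cardiomyocytes (7 of 8 markers in the table) ran from 13288 to 37052 CPM and those of fibroblasts (7 of 8) from 14791 to 52782 CPM, so transcripts of both cell types were abundant in every group. Smooth muscle and pericyte markers (8 of 8) summed to 1227 to 4471 CPM. Endothelial markers (7 of 8) summed to 11.5 to 67.0 CPM with Cldn5 at 0 in every library, those of Schwann cells and neurons (8 of 8) to 11.3 to 36.8 CPM, and those of macrophages (7 of 8) to 3.64 to 18.7 CPM, where Cd14 was higher in every doxorubicin library than in any other and the other 6 were not. The part of cell composition in the results was not tested.

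Some libraries of a group were much closer to each other than others. Over the genes of a pair, the chi-square of the counts per degree of freedom was 5.96 for libraries 1 and 2 of miR-222 without doxorubicin, 7.18 for libraries 1 and 3 of miR-455 without doxorubicin, 8.05 for libraries 1 and 2 of both mimics without doxorubicin, and 8.11 to 10.2 for all pairs of miR-455 with doxorubicin. All other pairs within a group gave 54.4 to 601. In these 3 mimic groups without doxorubicin the remaining library stood apart from the close pair. The main results count each library, and results are also given with close libraries of a group summed to 1, which leaves 19 libraries, an alternative chosen after seeing the data. Shares of all genes are given for the main results only. Counts with close libraries summed therefore do not tell whether these genes lost more calls than other genes.

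Levels are CPM scaled by the library's effective size (edgeR's TMM factors), and the 3 values of a group stand in the order of libraries 1, 2 and 3. Differences are log2 fold changes ± SE, from 3 libraries against 3, in edgeR's quasi-likelihood test, and "rose" and "fell" mean an adjusted p (Benjamini-Hochberg over 14303 genes) under 0.05. Levels are not compared between genes, since the counts are not scaled to transcript length.

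Across the 8 groups, 25 of the 49 members differed by the test of any difference, where 44.8% of all genes tested did. With close libraries summed it was 13. The summed level of the members was 172 to 265 CPM in the libraries with the control mimic alone. The libraries with a mimic and no doxorubicin ranged from 243 to 695 CPM, and all doxorubicin libraries from 146 to 326 CPM. Summed levels of the control-mimic groups with and without doxorubicin therefore overlapped.

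**Figure D1:**
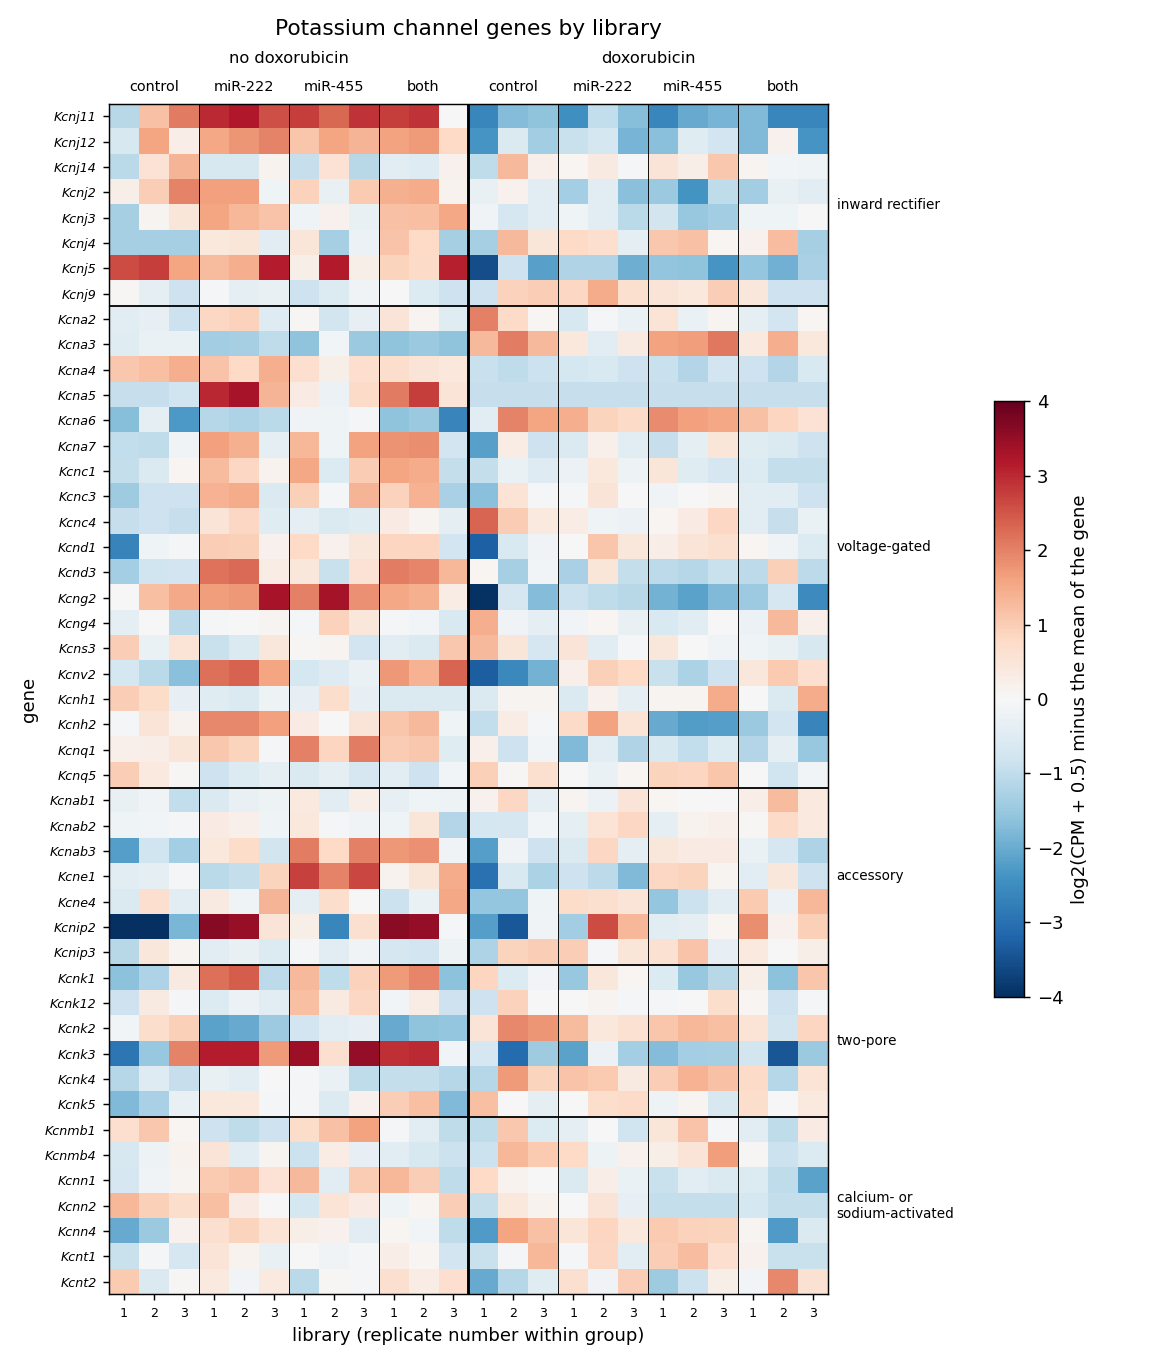
Heatmap of 47 of the 49 potassium channel genes (rows, by class) in the 24 libraries (columns, by group); colour is log2(CPM + 0.5) minus the gene's mean over all libraries, drawn from -4 to 4. Blocks of low values in the doxorubicin columns include Kcnj11, Kcnj5 and Kcng2, and 1 library in each of the 3 mimic groups without doxorubicin stands apart from its pair.

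Doxorubicin lowered more potassium channel genes than it raised in the cells that carried a mimic, and about as many as it raised in the cells with the control mimic. In the fit of all libraries Kcnj11, Kcnj5, Kcna4 and Kcng2 fell in all 4 mimic conditions, and Kcna3 and Kcna6 rose in all 4. With the control mimic 6 members rose and 5 fell, 11 of 49, where 27.5% of all genes tested passed (15.2% higher and 12.3% lower). With miR-222, 3 rose and 12 fell, where 14.6% of all genes passed (7.76% higher and 6.87% lower). With miR-455, 4 rose and 12 fell, where 18.1% passed (9.02% higher and 9.11% lower). With both mimics, 4 rose and 13 fell, where 15.1% passed (7.85% higher and 7.24% lower). The median log2 fold change of the members was 0.08, -0.20, -0.81 and -1.10 in these 4 comparisons, and that of all genes was 0.02, -0.00, 0.00 and -0.07. As members can pass the rule through the group in which they are high, these counts and medians are descriptions only. In bulk RNA, fewer cells of a type and less RNA per cell cannot be told apart. With close libraries summed, 2 rose (Kcna6 and Kcnc4) and 5 fell (Kcnj11, Kcnj5, Kcna4, Kcng2 and Kcnv2) with the control mimic, 1 rose and 5 fell with miR-222, none passed with miR-455, where the 3 doxorubicin libraries become 1, and 3 rose and 4 fell with both mimics.

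More inward rectifiers fell than rose. Of their 8 members, 2 fell and 1 rose with the control mimic, 5 fell under miR-222, and 4 fell under miR-455 and under the combination. Among all genes, 12.3%, 6.87%, 9.11% and 7.24% fell with the control mimic, miR-222, miR-455 and both. In the same order 15.2%, 7.76%, 9.02% and 7.85% rose. Kcnj11, which forms the pore of the ATP-sensitive potassium channel, stood at 0.894, 6.35 and 12.1 CPM with the control mimic alone, and at 0, 0.412 and 0.498 CPM once doxorubicin was added. With miR-222 its levels were 23.7, 27.3 and 17.7 CPM without and 0.0472, 1.04 and 0.437 CPM with doxorubicin. The groups did not overlap in either condition. Kcnj11 fell in all 4 conditions, with log2 fold changes of -4.27 ± 1.15 for the control mimic (adjusted p = 0.00934), -5.51 ± 1.16 for miR-222 (adjusted p = 0.00302), -6.59 ± 1.26 for miR-455 (adjusted p = 0.00119) and -6.61 ± 1.28 for the combination (adjusted p = 0.00151). Its call held with close libraries summed except with miR-455.

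The sulfonylurea receptors that complete this channel did not follow it. Abcc8, the neighbour of Kcnj11 on chromosome 1, had log2 fold changes of 1.37 ± 0.55, 0.78 ± 0.54, 0.54 ± 0.54 and 0.69 ± 0.54 with doxorubicin in the order control, miR-222, miR-455 and both, none past the threshold. Abcc9, the receptor of the heart muscle and vascular forms, rose by 1.07 ± 0.33 with the control mimic (adjusted p = 0.019), from 164, 121 and 98.6 CPM to 368, 236 and 201 CPM, with no overlap. In the other 3 conditions its log2 fold change was 0.40 ± 0.32, 0.38 ± 0.32 and 0.71 ± 0.33, none past the threshold.

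Kcnj5 and Kcnj3 encode the partners of the muscarinic potassium channel, which G proteins open. Kcnj5 held 35.5, 39.7 and 17.0 CPM with the control mimic alone and 0, 2.83 and 0.809 CPM with doxorubicin, again with no overlap. Without doxorubicin it stood at 13.7, 15.5 and 51.1 CPM with miR-222, at 6.47, 52.7 and 6.49 CPM with miR-455 and at 10.4, 9.48 and 50.5 CPM with both mimics, where the high value is in each case the library that stands apart from the close pair. No doxorubicin library of any condition was above 2.83 CPM. Kcnj5 fell in all 4, with log2 fold changes of -4.57 ± 1.03 (adjusted p = 0.00249), -3.96 ± 0.99 (adjusted p = 0.00992), -4.19 ± 1.01 (adjusted p = 0.00669) and -3.98 ± 1.00 (adjusted p = 0.00984), in the same order of conditions. The miR-455 call was lost when library 2 of miR-455 without doxorubicin was left out (-2.48, adjusted p = 0.0577) and when close libraries were summed. The call for both mimics was lost once the 4 libraries of fewest genes were removed (-2.57, adjusted p = 0.0506), and that for miR-222 without its treated library 3 (-3.68, adjusted p = 0.0572).

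Kcnj3 was at 0.937, 3.37 and 4.55 CPM with the control mimic alone and at 2.73, 1.75 and 2.18 CPM with doxorubicin, and these groups overlapped. With miR-222 it went from 10.2, 8.51 and 7.34 CPM to 2.65, 2.14 and 1.18 CPM. It fell with miR-222 (-2.13 ± 0.47, adjusted p = 0.00453), miR-455 (-1.40 ± 0.47, adjusted p = 0.0454) and both (-1.57 ± 0.47, adjusted p = 0.027), and its log2 fold change with the control mimic was -0.42 ± 0.46 (adjusted p = 0.54). The difference between the responses did not pass the test, and the 3 calls were lost with close libraries summed. Chrm2, the muscarinic receptor upstream of this channel, went from 67.7, 58.0 and 16.1 CPM to 2.02, 2.27 and 2.74 CPM with the control mimic. It fell in all 4 conditions, with log2 fold changes from -4.33 ± 0.50 with the control mimic to -5.76 ± 0.54 with both. Of the 9 genes listed for signalling to this channel, 2 rose and 3 fell with the control mimic, and 1 rose and 3 fell in each of the 3 mimic conditions. In the order control, miR-222, miR-455 and both, 15.2%, 7.76%, 9.02% and 7.85% of all genes rose. In the same order 12.3%, 6.87%, 9.11% and 7.24% of all genes fell.

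Kcnj2, Kcnj12 and Kcnj4 encode the Kir2 channels of the resting current. Kcnj2 was at 5.71, 9.88 and 20.4 CPM with the control mimic alone and at 3.73, 5.46 and 3.36 CPM with doxorubicin, which did not overlap, and its log2 fold change was -1.51 ± 0.63 (adjusted p = 0.083). It fell with miR-222 (-2.57 ± 0.66, adjusted p = 0.0115), from 15.9, 15.8 and 4.18 CPM to 1.56, 3.35 and 1.14 CPM. It also fell with miR-455 (-2.56 ± 0.67, adjusted p = 0.0109) and with both mimics (-1.94 ± 0.64, adjusted p = 0.047). All 3 of these calls were lost with close libraries summed. Kcnj12 fell with miR-222 (-3.51 ± 1.09, adjusted p = 0.0345) and gave -2.57 ± 1.07, -2.77 ± 1.05 and -2.87 ± 1.06 with the control mimic, miR-455 and both (adjusted p = 0.08, 0.075 and 0.074). Kcnj4 was the one inward rectifier that rose. It was listed at 0 in all 3 control-mimic libraries and at 0, 2.58 and 1.24 CPM with doxorubicin, so the groups overlapped at 0. Its pooled level was at least 36.5-fold higher than the limit of 3 counts over the control group.

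**Figure D2:**
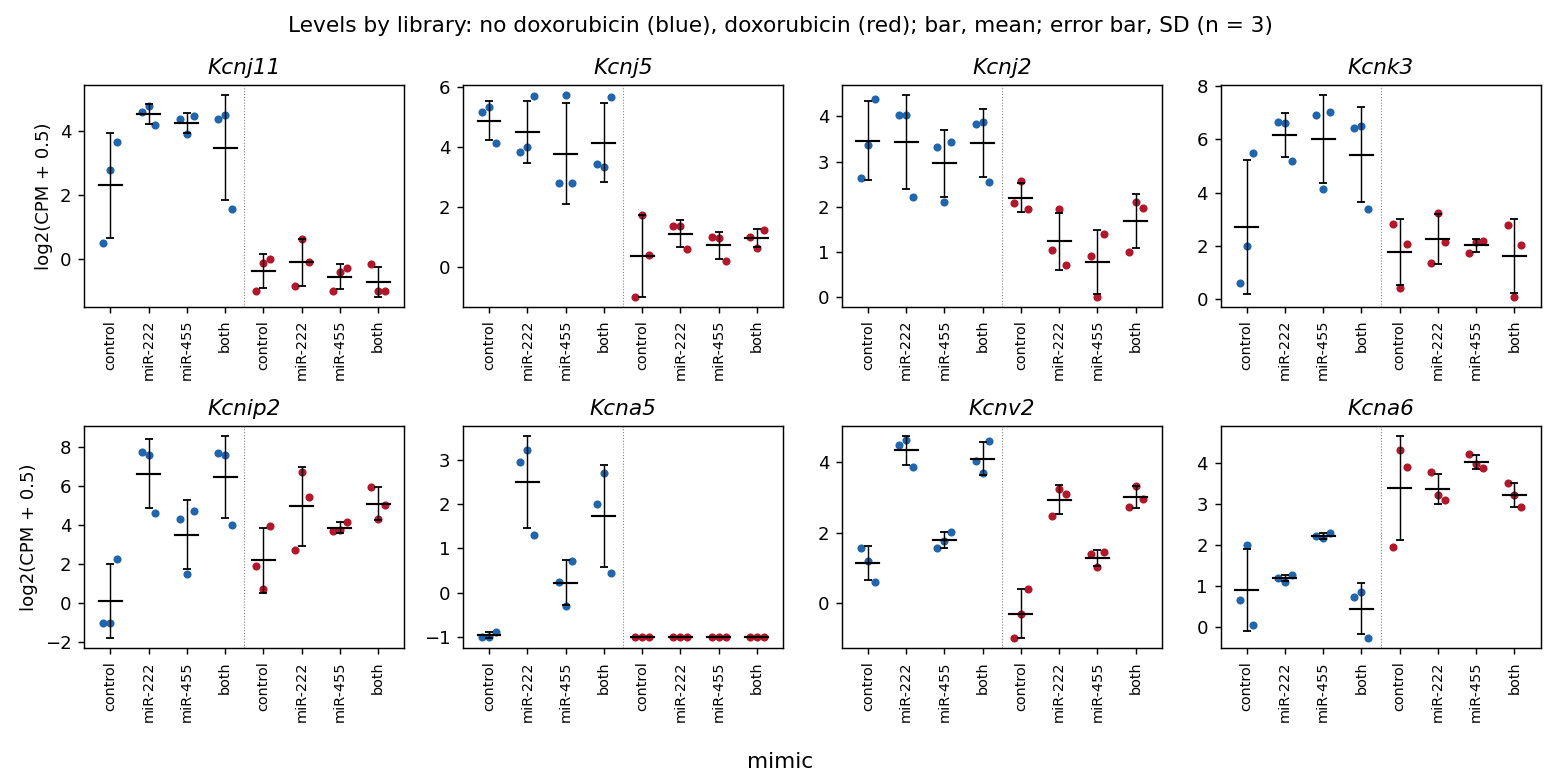
Levels of 8 potassium channel genes in the 24 libraries, as log2(CPM + 0.5) on the vertical axis and by group on the horizontal axis; points are libraries, bars the mean and error bars the SD (n = 3). Kcnj11 and Kcnj5 are low in every doxorubicin group, Kcna6 is high there, and Kcnip2, Kcnk3 and Kcna5 are widely spread in the mimic groups without doxorubicin.

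Of the 21 voltage-gated pore subunits, 5 rose and 3 fell with the control mimic, 2 rose and 6 fell with miR-222, and 3 rose and 6 fell both with miR-455 and with the combination. The shares of all genes that rose were 15.2%, 7.76%, 9.02% and 7.85% with the control mimic, miR-222, miR-455 and both. Those that fell were 12.3%, 6.87%, 9.11% and 7.24%. Kcna4, a fast-inactivating channel of the transient outward current, was at 1.87, 2.10 and 2.59 CPM with the control mimic alone and at 0.101, 0.0515 and 0.124 CPM with doxorubicin. It fell with the control mimic (-4.51 ± 0.89, adjusted p = 0.000862) and gave -3.41 ± 0.81, -3.60 ± 0.85 and -3.17 ± 0.82 with miR-222, miR-455 and both, all past the threshold. The libraries did not overlap in any of the 4. Kcng2, a silent subunit that forms channels only together with Kv2 subunits, was at 7.28, 17.2 and 21.7 CPM with the control mimic alone and at 0, 4.38 and 1.80 CPM with doxorubicin. It fell in the 4 conditions, by log2 fold changes of -2.84 ± 0.80 (adjusted p = 0.012), -3.62 ± 0.81 (adjusted p = 0.00476), -4.86 ± 0.87 (adjusted p = 0.000662) and -2.77 ± 0.79 (adjusted p = 0.0224). With close libraries summed Kcna4 and Kcng2 passed with the control mimic and with miR-222.

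Kcna5 carries the ultrarapid delayed rectifier. Its 3 control-mimic libraries held 1 count in all, and it was listed at 0 in each of the 12 doxorubicin libraries. Without doxorubicin it reached 7.29, 8.79 and 1.96 CPM with miR-222, 0.688, 0.311 and 1.14 CPM with miR-455 and 3.53, 6.02 and 0.870 CPM with both mimics. Against the limit of 3 counts over the group, its pooled level with doxorubicin was at least 124-fold lower with miR-222, at least 13.1-fold lower with miR-455 and at least 68.8-fold lower with both. These falls passed the test with adjusted p = 0.00101, 0.00854 and 0.00176, and the miR-455 call was lost with close libraries summed. The difference from the response with the control mimic did not pass the test. Its size could not be estimated, since the gene was at or near 0 in both control-mimic groups.

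Kcna6 and Kcna3, both of the Kv1 family, moved the other way. Kcna6 was at 1.06, 3.49 and 0.536 CPM with the control mimic alone and at 3.33, 19.4 and 14.6 CPM with doxorubicin, which overlapped between 1 library of each group. It rose by 2.87 ± 0.62 (adjusted p = 0.0018) there and by 2.51 ± 0.61, 1.94 ± 0.59 and 3.24 ± 0.63 with miR-222, miR-455 and both, where the libraries did not overlap. Its calls with the control mimic and with both held with close libraries summed, and its call with miR-455 was lost in 7 of 13 alternatives. Kcna3 was at 0.596, 0.754 and 0.759 CPM with the control mimic alone and at 3.23, 5.82 and 3.23 CPM with doxorubicin. It rose by 2.54 ± 0.91 (adjusted p = 0.0438) with the control mimic, by 3.01 ± 0.97 with miR-222 and by 3.88 ± 0.97 with miR-455. The call with the control mimic was lost in 9 of 13 alternatives (adjusted p up to 0.129). That with miR-222 was lost in 7 of 13 (adjusted p up to 0.215) and that with miR-455 in 1. With both mimics the untreated libraries held 1 count in all, and the pooled level with doxorubicin was 158 times higher with a 95% counting interval of 27.8 to 6297, the one of the 4 calls that held with close libraries summed.

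Kcna2, next to Kcna3 on chromosome 2, rose with the control mimic by 2.91 ± 0.93 (adjusted p = 0.0245), from 0.298, 0.357 and 0.0893 CPM to 3.84, 1.34 and 0.622 CPM. This call was lost in 6 of 13 alternatives, where the value ran from 1.96 to 3.34 (adjusted p up to 0.117); without control-mimic library 1 with doxorubicin it was 1.96. Kcnc4, a fast Kv3 channel, had 1 count in the 3 untreated control-mimic libraries and stood at 4.34, 1.44 and 0.746 CPM with doxorubicin. Its pooled ratio was 130 with a counting interval of 22.7 to 5196 (adjusted p = 0.000508). The first library with doxorubicin, the highest for both genes, is the one with the fewest genes and 38.2% mitochondrial counts. The call of Kcnc4 held when the 4 libraries of fewest genes were removed. Kcnh1 passed with both mimics, from 0 in all 3 libraries to 0.256, 0 and 1.58 CPM.

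Of the channels of late repolarization, Kcnq1 fell under all 3 mimic conditions and Kcnh2 under miR-455 and the combination. Kcnq1, which forms the slow delayed rectifier with Kcne1, was at 30.1, 31.8 and 36.7 CPM with the control mimic alone and at 30.1, 14.4 and 24.4 CPM with doxorubicin (-0.52 ± 0.45, adjusted p = 0.42). With miR-455 it went from 108, 48.3 and 111 CPM to 16.6, 13.0 and 17.9 CPM. Kcnq1 fell with miR-222 (-1.77 ± 0.46, adjusted p = 0.0122), miR-455 (-2.49 ± 0.47, adjusted p = 0.00105) and both (-1.66 ± 0.46, adjusted p = 0.018), calls that were lost with close libraries summed. Kcne1 itself gave -1.30 ± 0.76, -1.35 ± 0.76, -1.94 ± 0.74 and -1.10 ± 0.74 in the 4 conditions, none past the threshold. Kcnh2, the rapid delayed rectifier, was at 20.2, 30.3 and 23.2 CPM with the control mimic alone and at 10.4, 26.1 and 20.3 CPM with doxorubicin, which overlapped, and it gave -0.79 ± 0.43 with miR-222 (adjusted p = 0.25). It fell by 2.59 ± 0.46 (adjusted p = 0.000571) with miR-455, from 26.7, 21.0 and 30.3 CPM to 4.77, 4.04 and 4.13 CPM. It fell by 2.41 ± 0.45 (adjusted p = 0.00114) with both mimics, from 45.6, 52.3 and 18.7 CPM to between 2.93 and 12.0 CPM, and this call held with close libraries summed. Kcnq5, another KCNQ channel, rose by 1.55 ± 0.31 (adjusted p = 0.00148) with miR-455 alone of the 4 conditions, a difference from the control mimic that did not pass its own test (1.48 ± 0.42, adjusted p = 0.268).

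The two-pore channels went both ways. Kcnk3, an acid-sensitive leak channel, was at 1.02, 3.49 and 44.5 CPM in the control-mimic libraries and at 6.56, 0.825 and 3.73 CPM with doxorubicin, which overlapped. Under the mimics it went from 99.6, 98.5 and 36.2 CPM to 2.08, 9.06 and 3.93 CPM with miR-222, from 121, 17.0 and 129 CPM to 2.87, 3.89 and 4.02 CPM with miR-455, and from 84.7, 89.4 and 9.94 CPM to 6.33, 0.560 and 3.57 CPM with both. Kcnk3 fell in these 3 (-3.96 ± 1.19, adjusted p = 0.0293; -4.63 ± 1.23, adjusted p = 0.0126; -4.12 ± 1.20, adjusted p = 0.025), and all 3 calls were lost with close libraries summed. Kcnk2, a stretch- and lipid-sensitive leak channel, went from 1.57, 1.79 and 2.83 CPM to 21.5, 11.7 and 13.5 CPM with miR-222. Kcnk2 rose by 2.91 ± 0.45 (adjusted p = 0.00022), 1.78 ± 0.43 (adjusted p = 0.0063) and 2.29 ± 0.44 (adjusted p = 0.00139) with miR-222, miR-455 and both, with no overlap, and the calls with miR-222 and with both held with close libraries summed. Under the control mimic Kcnk2 was at 8.01, 14.5 and 17.4 CPM without and 12.7, 34.1 and 30.5 CPM with doxorubicin (0.96 ± 0.42, adjusted p = 0.093).

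Among the 7 calcium- or sodium-activated channel genes, Kcnn2, a small-conductance calcium-activated channel, was listed at 0 in all 3 libraries with miR-455 and doxorubicin against 0.0918, 0.899 and 0.702 CPM without. Its pooled level there was at least 11.6-fold lower. With both mimics it had 2 counts with doxorubicin, and 54 without. None of the 7 passed with the control mimic or with miR-222. Of the 7 accessory subunits none passed in any of the 4 doxorubicin comparisons. Among all genes, 27.5%, 14.6%, 18.1% and 15.1% passed with the control mimic, miR-222, miR-455 and both.

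**Figure D3:**
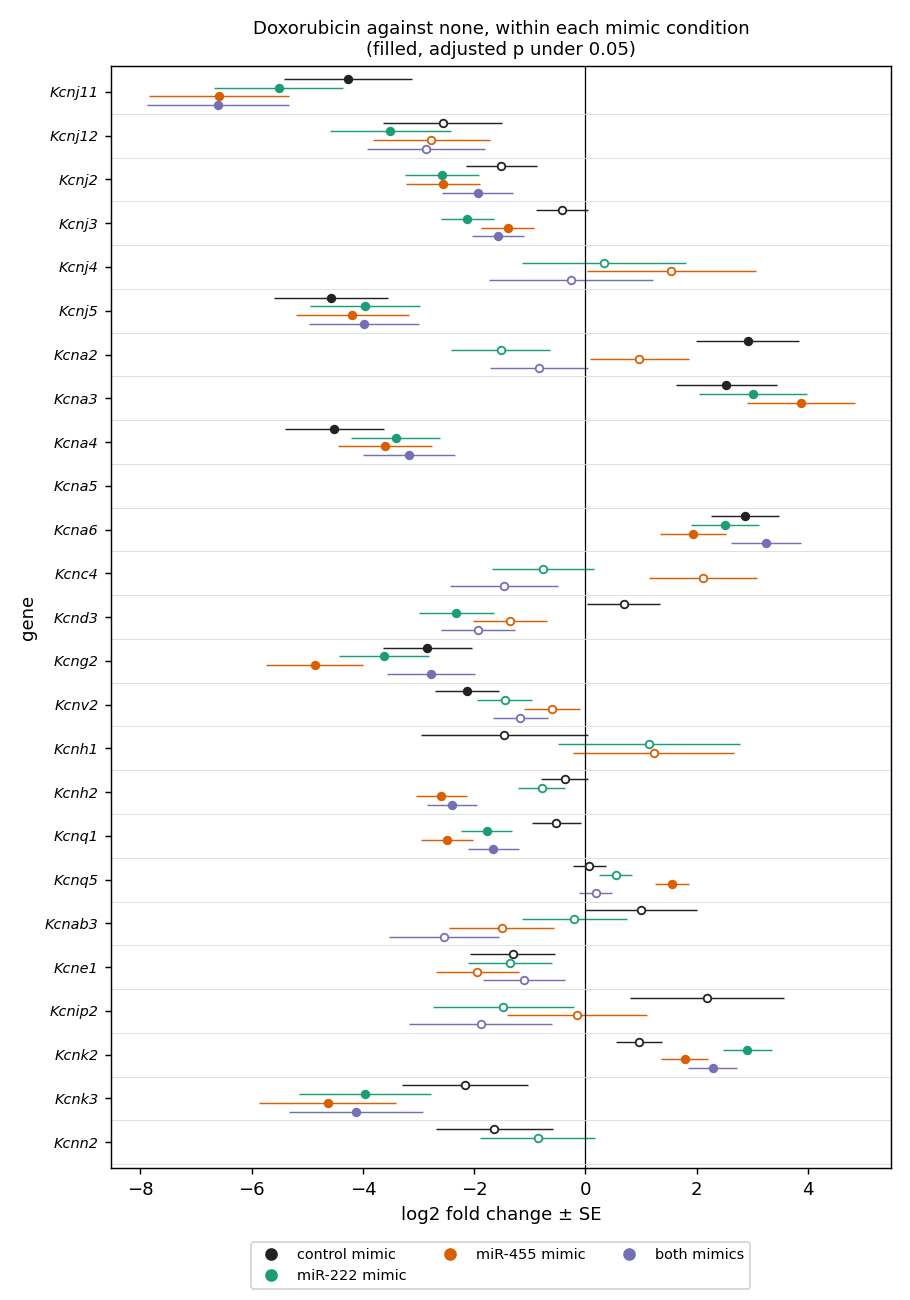
Log2 fold change with doxorubicin for 25 of the named genes under each of the 4 mimic conditions; error bars are SE from 3 libraries against 3, filled points have an adjusted p under 0.05, and pairs in which a group held 3 or fewer counts are left out. Kcnj11, Kcnj5, Kcna4 and Kcng2 lie left of 0 and filled in all 4 conditions.

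Whether the response to doxorubicin differed with a mimic was tested directly. No member passed for miR-222, miR-455 or both mimics against the control mimic, where 0.0489%, 0% and 0.0559% of all genes did. At an unadjusted p under 0.05 there were 9, 11 and 15 members, and DESeq2 called 3, 2 and 4. The shares just given hold for the adjusted edgeR test. No share of all genes is given for the unadjusted threshold or for DESeq2, so these counts cannot be set against the other genes. The smallest adjusted p was that of Kcnc4 with both mimics (0.0551) and with miR-222 (0.0778), where the untreated control-mimic group held 1 count, so no size is given. Kcna5, Kcnj2, Kcnj3, Kcnk3 and Kcnq1 fell with doxorubicin under all 3 mimic conditions and did not pass under the control mimic. The difference itself passed for none of these genes, and for Kcna5 its size could not be estimated.

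Without doxorubicin the mimics raised more potassium channel genes than they lowered. These comparisons share the control-mimic libraries, also with the doxorubicin comparison above. The untreated libraries of each mimic condition are also the reference of its doxorubicin comparison. High values in them enter both a rise with the mimic and a fall with doxorubicin. The values are therefore given side by side and not as support for each other. With miR-222, 7 members rose and 2 fell, where 8.97% of all genes passed (4.5% higher and 4.47% lower). With miR-455, 3 rose and 1 fell, where 4.72% passed (2.47% higher and 2.25% lower). With both mimics, 6 rose and 3 fell, where 7.06% passed (3.67% higher and 3.39% lower). The median log2 fold change of the members was 1.27, 1.12 and 0.73, and that of all genes 0.06, 0.06 and 0.07. With close libraries summed 1 member passed with miR-222, none with miR-455 and 1 with both mimics, in each case Kcnv2.

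Kcnv2, a silent subunit that joins Kv2 channels, kept its call in both settings. It was at 2.47, 1.79 and 1.03 CPM with the control mimic, at 21.9, 24.3 and 14.2 CPM with miR-222, at 2.48, 2.90 and 3.55 CPM with miR-455 and at 15.7, 12.4 and 23.7 CPM with both. The miR-222 and combination libraries lay above all control and miR-455 libraries. Kcnv2 rose by 3.51 ± 0.54 with miR-222 (adjusted p = 0.000761) and by 3.29 ± 0.54 with both (adjusted p = 0.00149). In the presence of doxorubicin it was at 0, 0.309 and 0.809 CPM with the control mimic, at 5.06, 9.01 and 8.04 CPM with miR-222, at 2.10, 1.55 and 2.23 CPM with miR-455 and at 6.15, 9.58 and 7.26 CPM with both. There too no mimic library overlapped the control. Kcnv2 rose by 4.19 ± 0.60 (adjusted p = 0.00022), 2.29 ± 0.58 (adjusted p = 0.0357) and 4.25 ± 0.60 (adjusted p = 0.000159), and the first and last of these held with close libraries summed. The miR-455 call was lost in 7 of 13 alternatives. Doxorubicin lowered it under the control mimic by 2.13 ± 0.57 (adjusted p = 0.00915).

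Among genes of the transient outward current, Kcnd3 and its partner Kcnip2 rose with miR-222 and with both mimics. Kcna4 passed in no mimic comparison without doxorubicin. Kcnd3, a Kv4 pore subunit, was at 1.92, 3.05 and 3.17 CPM with the control mimic, at 27.6, 29.5 and 7.08 CPM with miR-222 and at 25.1, 23.2 and 15.1 CPM with both, without overlap. It rose by 2.98 ± 0.69 (adjusted p = 0.0124) and 2.96 ± 0.69 (adjusted p = 0.0145), calls that were lost with close libraries summed. Kcnip2, the KChIP2 subunit that brings Kv4 channels to the membrane, was at 0, 0 and 4.38 CPM with the control mimic. It reached 214, 191 and 24.2 CPM with miR-222, 19.6, 2.32 and 26.2 CPM with miR-455 and 211, 196 and 15.8 CPM with both. Kcnip2 rose by 6.63 ± 1.62 (adjusted p = 0.0159) with miR-222 and by 6.60 ± 1.62 (adjusted p = 0.0186) with both. All 98 counts of the control mimic came from library 3, and over the alternatives the values ran from 5.97 to 14.6, the highest without that library. The close libraries carry the high values, and with them summed the adjusted p was 0.175 and 0.206. Kcnd2, the other main Kv4 gene of the rodent ventricle, is not analysed here. Dpp6, an extracellular partner of Kv4, gave 0.90 ± 0.98 with miR-222 and 1.35 ± 0.99 with both, not past the threshold.

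A list of 13 genes known to be induced by low oxygen moved with the same libraries. Averaged over the list, log2(CPM + 0.5) was 8.17, 8.12 and 5.79 in the miR-222 libraries, 8.42, 6.47 and 8.59 in the miR-455 libraries and 8.15, 8.20 and 5.85 in those of both mimics, against 5.62, 5.62 and 7.40 with the control mimic, all without doxorubicin. The control-mimic library with 7.40 also held the highest Kcnip2 and Kcnk3 of its group. None of the 13 genes passed in a mimic comparison without doxorubicin, and the part of this list in the channel results was not tested.

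Kcna5 rose in all 3 mimic conditions against the 1 count of the control mimic, with the levels given above. Its pooled ratio was 430 with miR-222 (counting interval 76.7 to 17000, adjusted p = 0.004), 48.4 with miR-455 (8.29 to 1948, adjusted p = 0.0404) and 260 with both (46.2 to 10287, adjusted p = 0.00684). All 3 calls were lost with close libraries summed. Kcnh2 rose by 1.63 ± 0.43 with miR-222 (adjusted p = 0.0247), to 80.4, 81.3 and 65.9 CPM from 20.2, 30.3 and 23.2 CPM, and gave 0.08 ± 0.42 with miR-455 and 0.66 ± 0.43 with both. Its call with miR-222 was lost in 6 of 13 alternatives (adjusted p up to 0.243). Kcnj3 rose by 1.55 ± 0.46 with miR-222 (adjusted p = 0.0411) and gave 1.50 ± 0.46 with both (adjusted p = 0.055). The Kcnj3 call was lost in 8 of 13 alternatives (adjusted p up to 0.299). Kcnc4 rose with miR-222 and with both mimics from 1 count, to 63 and 37 counts over the group.

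Kcne1 and Kcnab3, both accessory subunits, passed with the miR-455 mimic in the fit of all libraries, and each call was lost in 6 of 13 alternatives, close libraries summed included (adjusted p up to 0.407 and 0.426). Kcne1, the small partner of Kcnq1, was at 2.43, 2.58 and 3.21 CPM with the control mimic and at 25.7, 14.9 and 24.3 CPM with miR-455, against 1.35, 1.51 and 6.68 CPM with miR-222. Kcne1 rose by 2.98 ± 0.78 with miR-455 (adjusted p = 0.0348). Kcnab3, a Kv beta subunit, was at 0, 0.833 and 0.402 CPM with the control mimic, at 8.90, 3.49 and 8.82 CPM with miR-455 and at between 1.6 and 7.73 CPM with both. It rose by 4.08 ± 1.07 (adjusted p = 0.0355) and 3.72 ± 1.05 (adjusted p = 0.0382), the latter lost in 7 of 13 alternatives. Kcnq1, the pore partner of Kcne1, gave 1.43 ± 0.45 with miR-455 (adjusted p = 0.067).

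Falls with the mimics without doxorubicin were few, also among all genes. With miR-222, miR-455 and both, 2, 1 and 3 of the 49 members fell, where 4.47%, 2.25% and 3.39% of all genes did. Kcnk2 went from 8.01, 14.5 and 17.4 CPM with the control mimic to 1.57, 1.79 and 2.83 CPM with miR-222, 4.91, 6.29 and 6.89 CPM with miR-455 and 1.78, 2.53 and 2.66 CPM with both. Kcnk2 fell with miR-222 (-2.68 ± 0.44, adjusted p = 0.00125) and with both (-2.51 ± 0.44, adjusted p = 0.00241), and its libraries lay below every control library. These calls were lost with close libraries summed. Kcnq5 fell with miR-222, miR-455 and both (-1.14 ± 0.30, -1.12 ± 0.30 and -1.01 ± 0.30, adjusted p = 0.0238, 0.0403 and 0.0476), from between 11.7 and 22.9 CPM to between 6.17 and 10.4 CPM. These calls of Kcnq5 were lost in 4, 7 and 7 of 13 alternatives (adjusted p up to 0.256, 0.43 and 0.371). Kcna3 fell with both mimics (adjusted p = 0.0158), from 50 counts over the group to 1.

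With doxorubicin present few members passed in the mimic comparisons, and few of all genes did. With miR-222, 1 rose and none fell, where 3.95% of all genes passed (1.59% higher and 2.36% lower). With miR-455, 1 rose and 1 fell, where 2.5% passed (0.657% higher and 1.85% lower). With both mimics, 1 rose and 1 fell, where 5.55% passed (2.78% in either direction). The gene that rose was Kcnv2 each time. Kcnh2 fell by 2.14 ± 0.45 with miR-455 (adjusted p = 0.0111), from 10.4, 26.1 and 20.3 CPM to 4.77, 4.04 and 4.13 CPM, a call lost in 5 of 13 alternatives. Kcnc4 fell by 3.61 ± 1.02 with both mimics (adjusted p = 0.0414), from 4.34, 1.44 and 0.746 CPM to 0.214, 0 and 0.293 CPM. This call was lost in 9 of 13 alternatives, with values from -4.17 to -2.1 (adjusted p up to 0.197), and 43 of the 83 counts of the control mimic came from library 1, the one with the fewest genes. With close libraries summed 1, none and 1 passed.

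**Figure D4:**
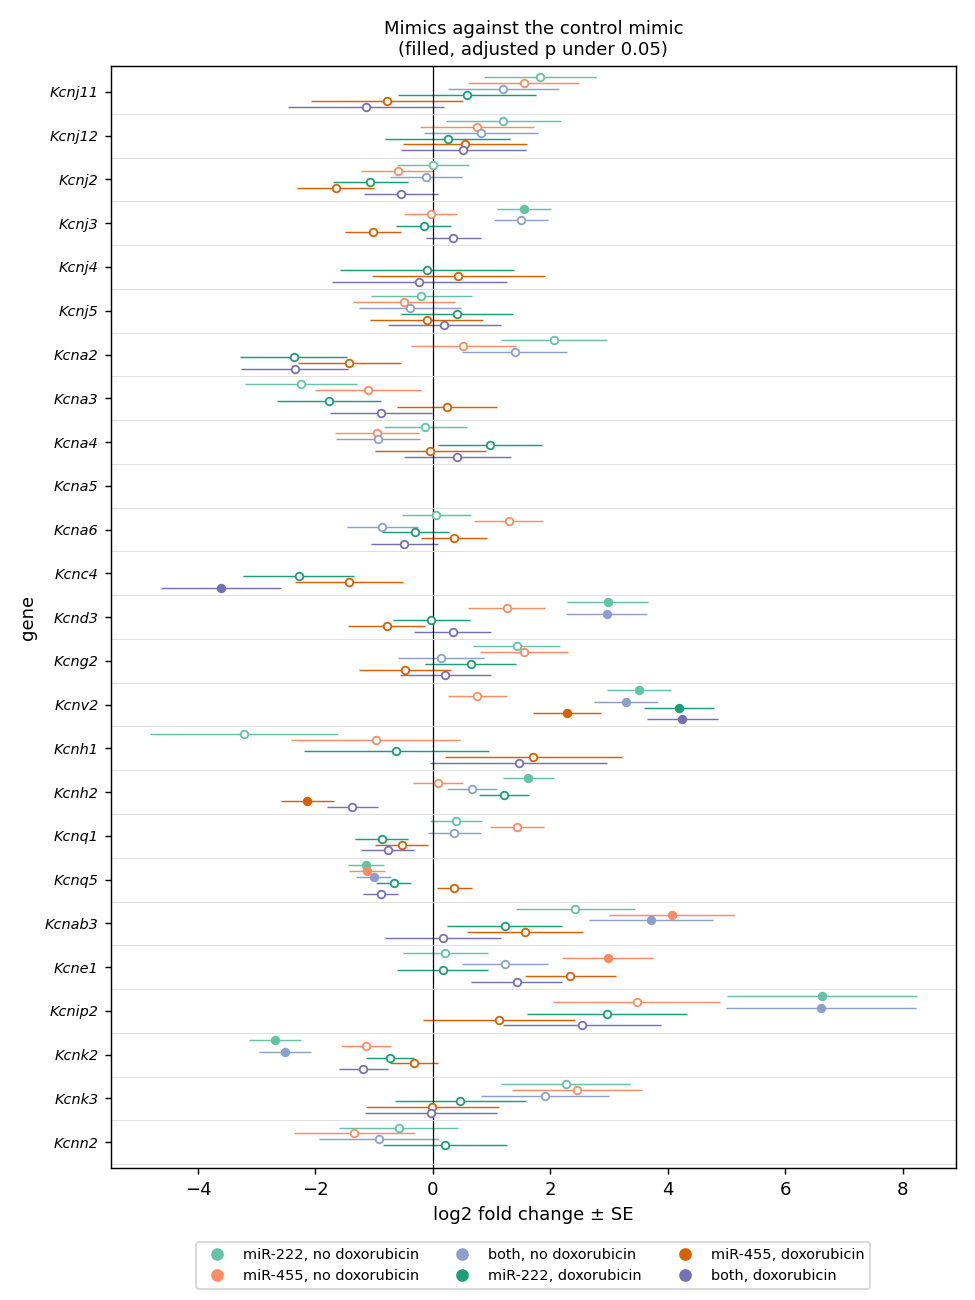
Log2 fold change of 25 of the named genes for each mimic condition relative to the control mimic, in cells without or with doxorubicin; error bars are SE from 3 libraries against 3, filled points have an adjusted p under 0.05, and pairs in which a group held 3 or fewer counts are left out. Kcnv2 is filled and right of 0 with miR-222 and with both mimics in either setting, and Kcnk2 is filled and left of 0 with the same mimics without doxorubicin.

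The other genes that serve these channels were taken from 9 lists of 69 genes. Of 12 transcription factors of channel gradients in the heart wall, 5 fell with doxorubicin under the control mimic, 8 under miR-222, 6 under miR-455 and 7 under both, and none rose. Of all genes tested, 12.3%, 6.87%, 9.11% and 7.24% fell in these 4 comparisons. Irx4, a ventricular factor, and Tbx5, Tbx20, Mef2c and Nkx2-5 fell in all 4. Irx4 went from 9.54, 10.6 and 4.96 CPM to 1.11, 4.59 and 3.42 CPM under the control mimic and fell by 1.44 ± 0.50 (adjusted p = 0.039). Tbx5 fell by 2.23 ± 0.45 (adjusted p = 0.0011) there. None of the 12 passed for a mimic without doxorubicin.

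Of 15 scaffold and trafficking genes, 1 rose and 5 fell with doxorubicin under the control mimic, 1 rose and 4 fell under miR-222, 2 rose and 4 fell under miR-455, and 1 rose and 2 fell under both. Of all genes tested, 15.2%, 7.76%, 9.02% and 7.85% rose in these comparisons, and 12.3%, 6.87%, 9.11% and 7.24% fell. Ank2 and Ank3, ankyrins that anchor channels to the membrane skeleton, fell in all 4 conditions. Ank2 went from 31.7 CPM or more to 18.3 CPM or less under the control mimic and fell by 1.17 ± 0.22 (adjusted p = 0.00047). Without doxorubicin 4, 1 and 6 of the 15 fell with miR-222, miR-455 and both mimics, and none rose. Of all genes tested, 4.47%, 2.25% and 3.39% fell there.

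The sodium pump, which restores the potassium gradient that the channels use, moved upward. Of its 8 genes, 4 rose with doxorubicin under the control mimic and 2 under each mimic condition. Of all genes tested, 15.2% rose under the control mimic and 7.76%, 9.02% and 7.85% under miR-222, miR-455 and both. Without doxorubicin 3, 3 and 2 of the 8 rose with miR-222, miR-455 and both, where 4.5%, 2.47% and 3.67% of all genes did. None of the 8 fell in any of these comparisons. The lists of BK gamma subunits and Kv4 partners had 1 tested gene each.

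Start-site sequences were examined for what the members share beside their symbol. RefSeq windows of 300 bases on GRCr8, from 250 before to 50 after the gene's start, exist in the table used for 34 of the 49 members. Motifs were searched on both strands, and the shares of all 33469 windows are given beside. Each member is counted by the first window listed for its symbol, while those shares are per window and not per gene. GGGCGG, the GC box, occurred in 20 of 34 (58.8%, against 33.1%) and TATAAA in 0 of 34 (against 14.2%). ACGTG, the core of the hypoxia response element, occurred in 3 of 34 (8.82%, against 19.3%) and the motif of cardiac zinc-finger factors, AGATAA, in 5 of 34 (14.7%, against 11.6%). Median GC content was 61.5% for the members and 51.7% for all windows, and it ran from 41.7% for Kcna4 to 80.7% for Kcnmb4. Windows of Kcnj5, lower with doxorubicin, and of Kcnip2, Kcna5 and Kcnv2, higher with miR-222, are shown with GGGCGG in either direction in capitals. Kcnj5 has 3 such boxes, Kcnip2 has 2, Kcnv2 has 1 and Kcna5 has 0. A match is a description of letters, not a binding site.
Kcnj5, chr8:39011047-39011346, minus strand: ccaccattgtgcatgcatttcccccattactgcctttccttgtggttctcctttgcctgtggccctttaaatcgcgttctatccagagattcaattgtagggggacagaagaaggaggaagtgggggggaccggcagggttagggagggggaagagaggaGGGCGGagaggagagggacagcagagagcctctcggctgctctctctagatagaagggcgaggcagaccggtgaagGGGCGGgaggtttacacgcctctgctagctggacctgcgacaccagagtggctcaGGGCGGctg
Kcnip2, chr1:254613849-254614148, minus strand: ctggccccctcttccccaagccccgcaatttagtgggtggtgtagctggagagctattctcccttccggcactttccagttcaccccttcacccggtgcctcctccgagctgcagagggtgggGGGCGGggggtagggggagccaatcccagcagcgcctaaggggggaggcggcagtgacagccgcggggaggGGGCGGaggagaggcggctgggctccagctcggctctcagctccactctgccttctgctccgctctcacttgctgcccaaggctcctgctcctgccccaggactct
Kcnv2, chr1:234412924-234413223, plus strand: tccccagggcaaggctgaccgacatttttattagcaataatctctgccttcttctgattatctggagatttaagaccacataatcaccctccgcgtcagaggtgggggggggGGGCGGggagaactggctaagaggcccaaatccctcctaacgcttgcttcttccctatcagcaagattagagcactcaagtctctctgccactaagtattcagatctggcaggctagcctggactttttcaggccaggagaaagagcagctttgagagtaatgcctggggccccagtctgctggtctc
Kcna5, chr4:161043760-161044059, minus strand: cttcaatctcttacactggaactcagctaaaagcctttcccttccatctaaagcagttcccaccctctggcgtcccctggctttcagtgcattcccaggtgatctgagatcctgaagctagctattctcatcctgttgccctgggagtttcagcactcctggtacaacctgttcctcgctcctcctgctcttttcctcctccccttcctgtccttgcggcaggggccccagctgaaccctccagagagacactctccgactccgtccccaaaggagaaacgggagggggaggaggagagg

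By gene order in RefSeq, Kcna5 and Kcna6 flank Kcna1 on chromosome 4, and of these Kcna5 was listed at 0 in all doxorubicin libraries while Kcna6 rose in all 4 doxorubicin comparisons. On chromosome 2 Kcna3 and Kcna2 are neighbours, and both rose with doxorubicin under the control mimic.

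Of the 49 members, 24 passed in none of the 4 doxorubicin comparisons and 20 passed neither in a comparison between groups nor in the test over the 8 groups. No matching share of all genes is given, so these counts cannot be set against the other genes. The 20 include Kcng4, a silent subunit, which was at 1 CPM or more in all 24 libraries and ran from 5.63 to 34.4 CPM, and Kcnd1, a Kv4 subunit, from 0 to 9.82 CPM. Both were chosen for mention after their values were seen. A self-test used counts simulated from each gene's mean over all 24 libraries and its fitted spread. Changes were added to the control-mimic group with doxorubicin, in genes drawn at random from all those kept by the filter. It recovered 6% of 2-fold, 42% of 4-fold, 74% of 8-fold and 84% of 16-fold changes, so that small changes were mostly not detectable at this replication. Recovery among the potassium channel genes alone was not tested.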

How the data were processed

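PolyA RNA was sequenced from 24 libraries of cultured rat myocytes, 8 groups of 3. The deposited gene-level counts are the authors' estimates, of which 7.35% of values are not whole; Salmon, DESeq2 and Rnor 6.0 are named in the submitters' processing notes, without version or role for the tools. The expected counts as deposited by the authors were rounded to whole numbers here. edgeR 4.0.16 (R 4.3.3) tested 14303 of 21767 genes kept by filterByExpr, with TMM scaling, 1 mean per group, every library in the fit and a quasi-likelihood F test, with Benjamini-Hochberg adjustment over all genes of a comparison and a threshold of 0.05. SE is the log2 fold change divided by the square root of F. Hypoxia means use log2 of CPM plus 0.5. A ratio from 1 to 3 counts carries an exact 95% interval, and a group at 0 was set to 3 counts over the group; both cover counting error only. Some genes are not reported by name here; they are left out of the figures but not of the counts. Members and lists were chosen with earlier results of these data known. Named genes are 16 cardiac channel genes always named where they are members, and in each comparison the 4 higher and 4 lower called members with the largest change, 27 in all; others are said to be chosen after their values were seen. Depth was 17311949 to 25750309 counts. The model was tested on simulated data. Alternatives were DESeq2 size factors, DESeq2 1.42.0, testing all genes, testing genes at 1 CPM in 3 libraries, the replicate number as a block, leaving out each library or the 4 with the fewest genes, and, added after seeing the data, summing close libraries.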

Additional observations from a re-analysis of the deposited data

How the results depend on the processing

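None of the 85 calls of named genes changed direction under any alternative run. Of these, 22 held under every alternative and 63 were lost under at least 1; of 1105 alternative values, 265 were past the threshold no longer. DESeq2 size factors in edgeR left each count of members called within 1.5 times. The DESeq2 test called 15, 10 and 16 members for miR-222, miR-455 and both without doxorubicin, 2, 4 and 6 with doxorubicin, and 3, 2 and 4 for the difference between responses. With no filter, both mimics with doxorubicin gave 1, and with the filter of 1 CPM the difference between responses for both mimics gave 1. Without the 4 libraries with the fewest genes (control mimic library 1 and both mimics library 3 without doxorubicin, control mimic library 1 and both mimics library 2 with it) the counts were 8 for miR-455 and 16 for both without doxorubicin, 2 for miR-222 and 4 for both with doxorubicin, and 2, 1 and 9 for the differences between responses. With close libraries summed they were 7, 6, 0 and 7 for doxorubicin with the control mimic, miR-222, miR-455 and both, 1, 0 and 1 for the mimics without doxorubicin, 0 for miR-455 and 1 for both with doxorubicin, and 13 for the 8 groups. The cause was not tested, but this setting has 19 libraries in place of 24. No share of all genes is given for any of these alternatives, so their counts cannot be set against the other genes.

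Leaving out 1 library at a time gave 7 to 13 members for doxorubicin with the control mimic, 7 to 13 with miR-222, 12 to 14 with miR-455 and 9 to 18 with both. Without doxorubicin it gave 3 to 9 for miR-222, 0 to 8 for miR-455 and 3 to 14 for both, with doxorubicin 1 to 2, 0 to 2 and 1 to 4, for the differences between responses 0, 0 and 0 to 4, and for the 8 groups 22 to 27. Counts that moved by more than 1.5 times were, for doxorubicin, 7 with the control mimic without its untreated library 2, 7 to 9 with miR-222 without untreated library 1 or 2 or treated library 1 or 3, and 9 to 10 with both without untreated library 1 or 2 or treated library 3. Without doxorubicin they were 3 to 4 for miR-222 without control library 1 or miR-222 library 1 or 2, 0 for miR-455 without control library 1 or 2 or miR-455 library 1 or 3, 8 without miR-455 library 2, 3 to 5 for both without control library 1 or 2 or both-mimic library 1 or 2, and 14 without both-mimic library 3. With doxorubicin they were 2 for miR-222 without control library 3, 0 for miR-455 without control library 2 or any 1 miR-455 library, 4 for both without control library 1, and 1 without control library 2 or both-mimic library 3. The difference between responses for both mimics gave 4 without untreated library 3 and 1 without treated library 1 of both mimics.

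The replicate number was not taken to pair the libraries: of 84 pairs with the same number, 20 had correlated deviations over 0.1, from -0.65 to 0.53 with a median of -0.02, and 4 of 24 libraries correlated best with their own number. The 3 pairs of miR-222 and both mimics without doxorubicin, groups not compared with each other here, had 0.40, 0.38 and 0.46. With the replicate block the count was 1 for miR-455 without doxorubicin and 1 for miR-455 with doxorubicin, and no other count moved by more than 1.5 times. Scaling the rule by effective library size, or lowering it to 0.5 CPM (57 genes), left the number of members within 1.5 times. Depth limits the genes near 1 CPM, where a group can hold fewer than 3 counts.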

Other observations

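Outside the rule for named genes, and chosen after their values were seen, 2 members differed among groups. Kcnn1, a small-conductance calcium-activated channel, fell with doxorubicin under both mimics by 2.18 ± 0.65 on the log2 scale (adjusted p = 0.0275), from 5.81 ± 3.96 CPM (SD, n = 3) to 1.27 ± 0.875 CPM, and its libraries overlapped. Kcnk4, a two-pore channel that responds to stretch and heat, passed the test over the 8 groups (adjusted p = 0.0402) and no single comparison. Its mean was 0.122 ± 0.142 CPM (SD, n = 3) with the control mimic alone and 1.55 ± 1.55 CPM with doxorubicin, and 0.337 ± 0.262 CPM with miR-455 against 2.03 ± 0.350 CPM with miR-455 and doxorubicin.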
